A study of Mus musculus with 16 samples.

Results

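The genes described here are the heat shock proteins and the DNAJ co-chaperones of the mouse hippocampus. They were taken by name: every gene listed as Hspa, Hspb, Hspd, Hspe, Hsph or Hsp90, or as Dnaja, Dnajb or Dnajc, with pseudogenes and unnamed gene models left out. Of 74 such names, 65 had enough counts to be tested, among 17555 genes kept of 54532 listed. They were 14 members of the HSP70 and HSP110 families, 3 of the HSP90 family, both chaperonin genes (Hspd1 and Hspe1) and 4 genes named as small heat shock proteins (Hspb1, Hspb6, Hspb8 and Hspb11). The others were 4 DNAJA, 11 DNAJB and 25 DNAJC genes, and 2 further genes named for binding a heat shock protein (Hspbp1 and Hspbap1). The 9 names not kept were Dnajc5g, with no count in any mouse, and Dnajb7, Dnajb8, Dnajc5b, Dnajc22, Hspb2, Hspb3, Hspb7 and Hspb9, with 12 to 174 counts summed over all mice.

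RNA-seq of the hippocampus was done in 16 mice, 4 in each of 4 groups, to ask how a mutant human Tau and a NAD+ precursor change the transcriptome. WT mice, and hTau.P301S mice that carry human Tau with the P301S mutation in neurons under the Thy1 promoter, either received no NR or were given nicotinamide riboside, NR, at 6 mM in the drinking water, and the treated groups are called WT + NR and hTau.P301S + NR. The labels give an age of 12 months at the start and 15 months at the end of the 3 months of treatment, and the study's own text gives other ages and lengths in places. The mice had been through behavioral tests before the tissue was taken, and the labels name no litter or batch.

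Heat shock proteins and DNAJ proteins help other proteins to fold, keep them from clumping and pass damaged ones on for breakdown. HSP70 proteins bind and release their clients in a cycle driven by ATP: a DNAJ protein brings the client and starts the ATP step, and a nucleotide exchange factor such as BAG1 or an HSP110 ends it. Many clients then go on to HSP90. Cytosolic Tau is a well-known client of HSP70, HSP90 and their partners, and the study examined the protein EVA1C together with HSP70 and BAG1. In stressed cells the heat shock factor HSF1 raises the inducible members, while the endoplasmic reticulum members answer to the unfolded protein response.

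The letters that these factors are known to read stood before several of the genes. In RefSeq promoters of GRCm38.p6, the 250 bases before the start of 54 of the 65 genes could be searched for a pair of facing heat shock half-sites, GAA followed by TTC or TTC followed by GAA, with 2 bases of any kind between them (both motifs read the same on either strand and may overlap). These letters were in 13 of the 54 (24.1%), namely Dnaja1, Dnaja4, Dnajb4, Dnajb6, Dnajc10, Dnajc27, Hspa1a, Hspa1b, Hspb1, Hspb6, Hspd1, Hspe1 and Hsph1, against 14.5% of all 27025 genes searched. The endoplasmic reticulum stress element, CCAAT and CCACG with 9 bases of any kind between them, searched on both strands, was in 3 of the 54 (5.56%), Hspa5, Hsp90b1 and Dnajc3, against 0.130% of all genes. The windows below are from some of the genes with a match, chosen by hand and not by the size of their differences. Genes with wider differences further on, such as Dnajc19, have no window here, and Hsp90b1 is not printed. Windows are given 5′ to 3′ on the gene's strand with the matched letters in capitals. A match is a description of the letters and no test of binding.

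Hspa1a, chr17:34972228-34972285, minus strand, inducible HSP70: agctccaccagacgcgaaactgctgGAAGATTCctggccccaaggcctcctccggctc

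Hspa1b, chr17:34959310-34959367, minus strand, inducible HSP70: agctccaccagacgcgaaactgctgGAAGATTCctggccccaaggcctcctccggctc

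Hspb1, chr5:135887777-135887854, plus strand, small heat shock protein: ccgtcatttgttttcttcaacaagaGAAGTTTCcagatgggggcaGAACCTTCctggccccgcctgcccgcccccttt

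Dnajb6, chr5:29735844-29735872, plus strand, DNAJB co-chaperone: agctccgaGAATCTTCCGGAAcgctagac

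Dnaja4, chr9:54699496-54699525, plus strand, DNAJA co-chaperone: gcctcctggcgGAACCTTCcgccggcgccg

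Hspe1, chr1:55088053-55088082, plus strand, mitochondrial co-chaperonin: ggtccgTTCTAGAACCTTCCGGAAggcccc

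Hspa5, chr2:34772020-34772048, plus strand, endoplasmic reticulum HSP70: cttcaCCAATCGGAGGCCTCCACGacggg

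Dnajc3, chr14:118937802-118937870, plus strand, endoplasmic reticulum DNAJ: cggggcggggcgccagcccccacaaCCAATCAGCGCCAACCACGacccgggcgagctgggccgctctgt

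The Hspa1a and Hspa1b windows carried the same letters, and their 250 bases were identical at 247 positions and differed at 3. The likeness extended into the transcripts. The longest coding transcript of each gene was searched, with stretches read on either strand. Of its stretches of 100 bases, 56.5% were also found in another gene for Hspa1a and 49.9% for Hspa1b. The shares were 70.8% for Hspa1l, 63.4% for Hspa8 and 47.5% for Hsp90aa1. The genes sharing them included overlapping ones on the opposite strand, Gm20481 for Hspa1a and Gm10501 for Hspa1l. Counts of these genes could therefore have been divided between copies or overlapping genes in the authors' counting. Hspa1a and Hspa1b are also given as a sum. In Dnajb6 and Hspb1 the shares were 36.3% and 42.7%, and in Dnaja4 the share was 51.0%, from Wdr61 on the opposite strand. Whether the counting used strand is not given in the sources used here.

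Levels spanned a wide range. Per kilobase of listed gene length, as the median over the 16 mice, Hsp90ab1 was the highest at 520 CPM (counts scaled to library size, per 1000000) per kilobase, and Hspa8, the constitutive HSP70, followed at 297, ahead of Hsp90aa1 at 268. Together these 3 genes took 40.6% to 50.1% of the CPM summed over the 65 genes in each mouse, and that sum was 8220 to 10043 CPM. The next were Dnaja2 at 63.6, Hspd1 at 62.8, Hspa9 at 60.2, Dnajc6 at 55.8, Dnajc5 at 55.1 and Hspa5 at 53.4 CPM per kilobase, so that the abundant genes included cytosolic, mitochondrial, endoplasmic reticulum and synaptic vesicle members. At the other end were Hspbap1 at 0.453, Dnajb13, an axonemal gene of motile cilia, at 0.618 and Hspa1l at 0.778 CPM per kilobase.

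**Figure D1:**
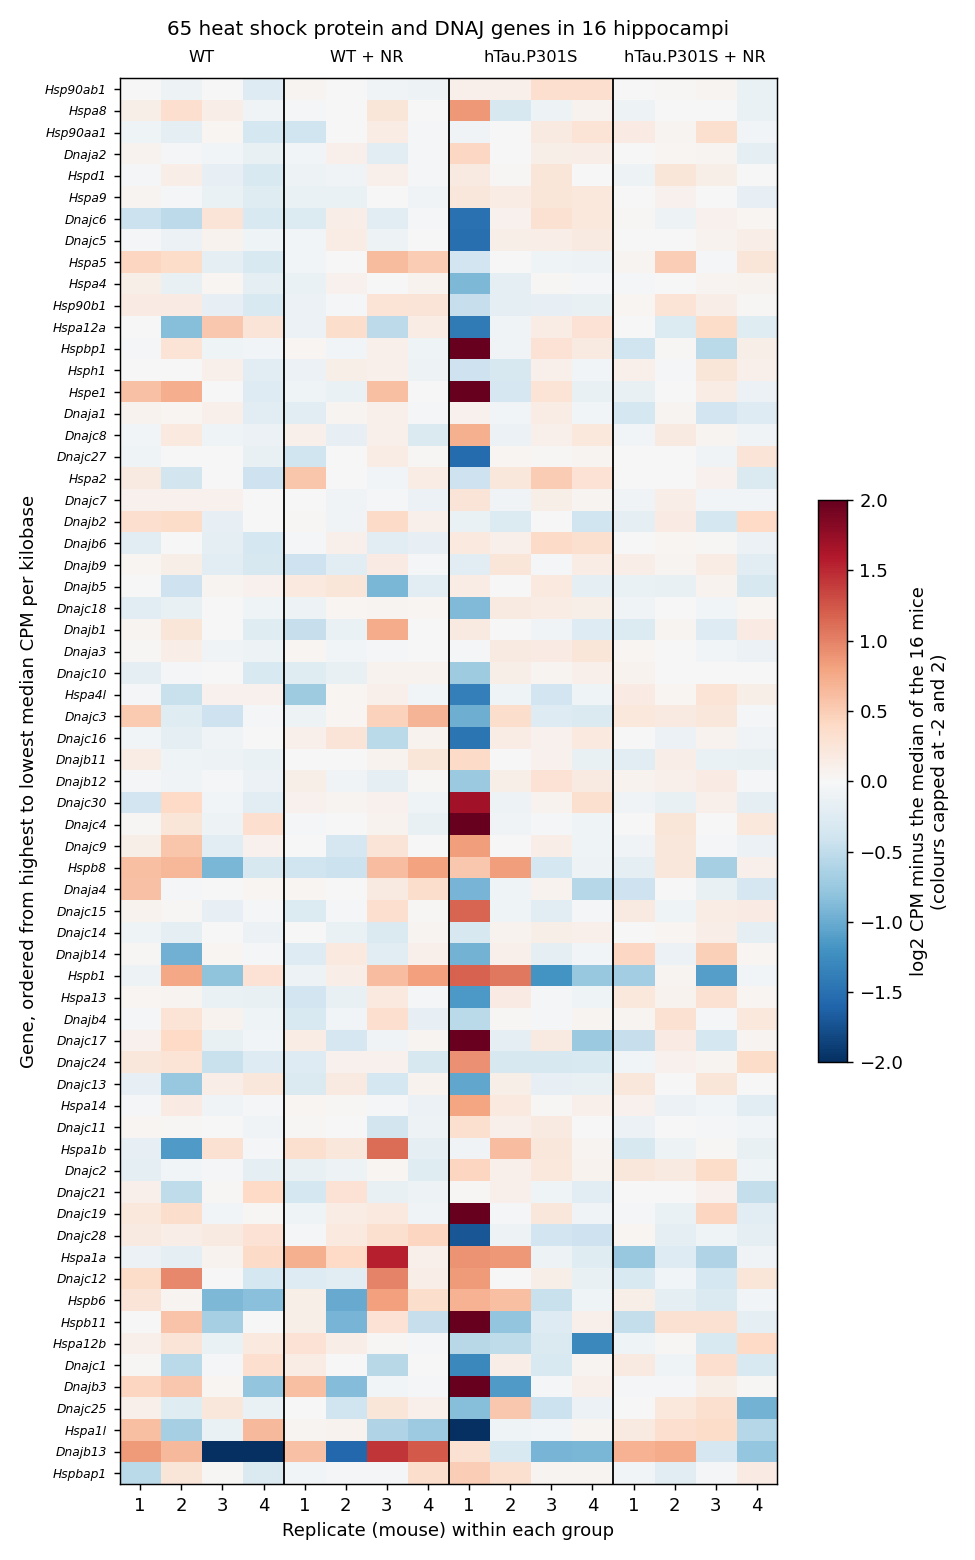
Heat map of the 65 genes (rows, ordered by their median CPM per kilobase) in the 16 mice (columns, by group). Colour gives log2 CPM minus the gene's median over the 16 mice, capped at -2 and 2; the column of hTau.P301S replicate 1 differs from all others across most rows.

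Library totals were 16490261 to 21915362 counts. The library of hTau.P301S replicate 1 stood apart, with 14.4% of its counts from mitochondrially encoded genes and 19467 genes detected, against 4.48% to 7.07% and at least 22199 genes in the other 15. Of the 65 genes, 21 were higher in this mouse than in every other mouse and 22 were lower than in every other mouse. That is 32.3% and 33.8%, beside 31.8% and 35.1% of all tested genes. The direction went with gene length. The 21 genes above all others had a median listed length of 2555 bases and the 22 below all others one of 5630.5 bases, and across the 65 genes the log2 ratio of replicate 1 to the mean of the other 3 hTau.P301S mice had a Spearman correlation of −0.58 with length (−0.45 across all tested genes, which are not independent replicates). The main results of comparisons with untreated hTau.P301S mice are therefore also given without this mouse. As a check of the labels, Thy1, the gene that lent the transgene its promoter, was at 424 to 633 CPM in the 8 WT mice and at 667 to 1640 CPM in the 8 hTau.P301S mice. Neurod6, a marker of hippocampal and cortical pyramidal neurons, was at 116 to 237 CPM in 13 mice. It was at 21.7 to 35.0 CPM in WT replicate 2, WT + NR replicate 3 and hTau.P301S + NR replicate 4. In these mice the summed striatal markers were at 160 to 850 CPM, against 26.0 to 81.9 CPM in the rest. No untreated hTau.P301S mouse had such a raised sum. Against WT, all 5 striatal markers were lower in that group, 4 with an unadjusted edgeR p under 0.05 (median log2 difference −2.65). For NR in hTau.P301S mice all 5 were higher, each at that mark (median 1.75). The NR by genotype interaction was positive in all 5, with 4 at that mark (median 3.16). In the remaining comparisons none was. The part of the tissue taken in the chaperone differences was not tested.

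**Figure D2:**
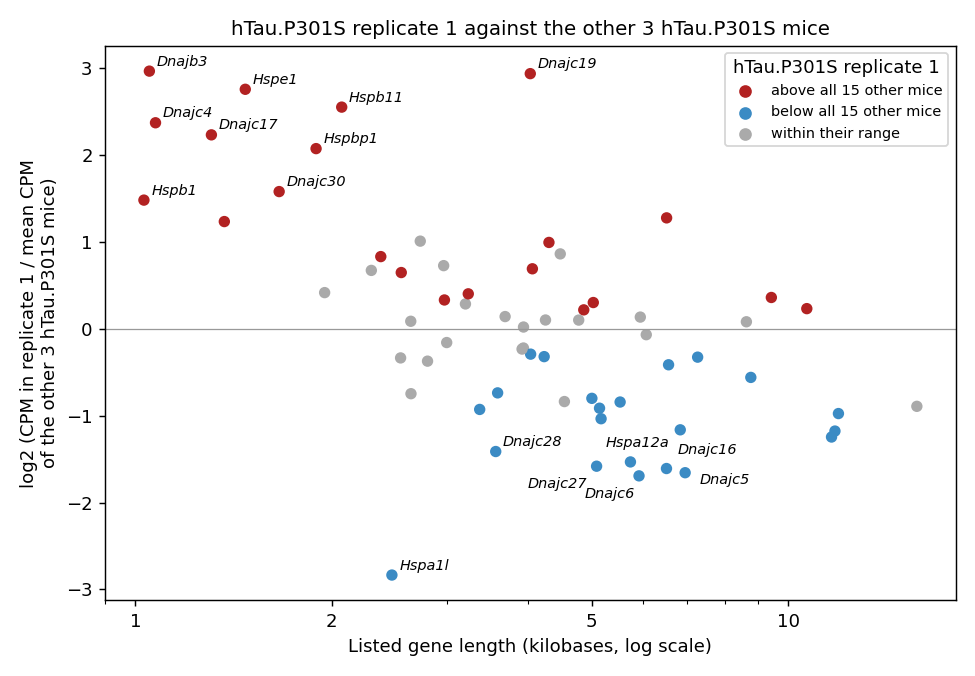
Each point is 1 of the 65 genes; the x axis is the listed gene length in kilobases (log scale) and the y axis the log2 ratio of CPM in hTau.P301S replicate 1 to the mean of the other 3 hTau.P301S mice. Red points, higher in replicate 1 than in all 15 other mice, lie mostly among short genes, and blue points, lower than in all 15, among longer ones.

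The fitted differences of several genes, mitochondrial ones among them, rested on this mouse. Values here and below are given in the order of replicates 1 to 4. Dnajc19, part of the motor that pulls proteins into the mitochondrial matrix, was at 137, 17.0, 20.4 and 16.5 CPM in hTau.P301S mice and at 20.2, 22.1, 16.7 and 17.7 CPM in WT mice. Hspe1, the mitochondrial co-chaperonin, was at 343, 42.3, 64.5 and 48.4 CPM in hTau.P301S mice, and at 80.1, 88.5, 53.9 and 44.5 CPM in WT mice. Hspbp1, a nucleotide exchange factor for HSP70, was at 325, 67.3, 86.5 and 79.8 CPM in hTau.P301S mice, against 69.6, 85.6, 66.6 and 67.8 CPM in WT mice. In each of these genes replicate 1 was far above and the other 3 mice lay within or near the WT range. The fitted difference of Dnajc19 between hTau.P301S and WT was 1.32 ± 0.70 on the log2 scale (SE; edgeR adjusted p = 0.583), and without replicate 1 it was −0.097; that of Hspe1 went from 0.91 to −0.37, and that of Hspbp1 from 0.95 to 0.10. Some long neuronal genes showed the opposite. Dnajc5, the cysteine string protein of synaptic vesicles, was at 134, 417, 420 and 434 CPM in hTau.P301S mice. Dnajc6, the auxilin that uncoats clathrin vesicles, was at 117, 348, 406 and 383 CPM there. Hspa12a, a distant HSP70 relative, was at 95.6, 243, 282 and 311 CPM.

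Outside that mouse the genes were steady. The SD of log2 CPM within groups had a median of 0.31 over the 65 genes and 0.45 over all tested genes, and without hTau.P301S replicate 1 these medians were 0.21 and 0.31. All tested genes were not matched to the 65 for expression level. Only 5 of the 65 were above 0.5 without that mouse: Dnajb13 at 1.43, Hspb1 at 0.71, Hspb8 at 0.62, Hspb6 at 0.57 and Dnajb3 at 0.53. Thus 3 of the 4 genes named as small heat shock proteins were among the most variable.

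The comparison of hTau.P301S with WT mice asks how mutant Tau bears on the chaperones without NR. None of the 65 genes passed an adjusted p under 0.05 with an absolute log2 fold change above 0.5 in edgeR, where 0.00570% of all genes did, and the smallest adjusted p of any of them was 0.583. An unadjusted p under 0.05 was found for 3 (Dnajb6 higher, Dnajc28 and Hspa12b lower), with 7.79% of all genes at that mark, 3.42% higher and 4.37% lower. DESeq2 on the same 8 mice called none and had 5 of the 65 at an unadjusted p under 0.05, with 10.1% of all genes there. The groups did not overlap in 6 genes, Hsp90ab1, Hspa9, Dnajb6 and Dnajc2 higher and Dnajc28 and Hspa12b lower in hTau.P301S mice, beside 6.31% of all genes, 3.45% higher and 2.85% lower. These counts are near the share over all genes. Without hTau.P301S replicate 1, 7 of the 65 were at an unadjusted p under 0.05, where 11.8% of all genes were. The median log2 difference of the 65 genes was 0.11 with all mice, where that of all genes was 0.01. Without hTau.P301S replicate 1 these medians were 0.05 and −0.03. For 43 of the 65 (66.2%) the 95% interval of the difference lay between a doubling and a halving, against 39.6% of all genes, which were not matched for expression level. The p-values measure the spread between these mice, and in bulk tissue fewer cells of a type and less RNA per cell cannot be told apart.

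Dnajb6, a DNAJB protein known to hold back aggregation, was the one gene at that mark that was higher in hTau.P301S mice. Its levels were 112, 131, 114 and 103 CPM in WT mice and 149, 139, 170 and 163 CPM in hTau.P301S mice. No WT mouse reached the lowest of the hTau.P301S mice. The log2 difference was 0.44 ± 0.17 (SE; edgeR unadjusted p = 0.0290, adjusted p = 0.583), and without hTau.P301S replicate 1 it was 0.45 with an unadjusted p of 0.00932. With NR the groups drew together: Dnajb6 was at 127, 140, 113 and 116 CPM in WT + NR mice and at 129, 134, 133 and 121 CPM in hTau.P301S + NR mice.

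Hsp90ab1, the constitutive cytosolic HSP90, was at 1558, 1450, 1548 and 1306 CPM in WT mice and at 1671, 1678, 1973 and 1966 CPM in hTau.P301S mice. The 2 groups did not overlap, and replicate 1 was the lowest of the hTau.P301S mice. The log2 difference was 0.32 ± 0.21 (SE; edgeR adjusted p = 0.587), and 0.35 without replicate 1 (unadjusted p = 0.0414). Its partner Hsp90aa1, the inducible form, overlapped between the same groups, with 989, 927, 1079 and 829 CPM in WT and 1005, 1065, 1196 and 1271 CPM in hTau.P301S mice. Hspa9, the mitochondrial HSP70, was at 245, 232, 215 and 200.05 CPM in WT mice, and at 276, 263, 280.14 and 275 CPM in hTau.P301S mice. Here too the ranges were apart, with a log2 difference of 0.30 ± 0.17 (SE; edgeR unadjusted p = 0.109) that was 0.29 without hTau.P301S replicate 1 (unadjusted p = 0.0411). With NR both genes overlapped between genotypes: Hsp90ab1 ranged from 1461 to 1628 CPM in WT + NR and from 1420 to 1624 CPM in hTau.P301S + NR mice, and Hspa9 from 215 to 236 CPM and from 212 to 252 CPM.

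Hspa12b, an HSP70 relative known from endothelial cells, was at 9.81, 10.9, 8.28 and 10.4 CPM in WT mice. In hTau.P301S mice it was at 6.15, 6.36, 7.46 and 3.66 CPM, below every WT mouse. The log2 difference was −0.74 ± 0.27 (SE; edgeR unadjusted p = 0.0228, adjusted p = 0.583), and −0.76 without replicate 1 (unadjusted p = 0.0186). With NR it was at 11.1, 10.0, 9.23 and 8.97 CPM in WT and 8.60, 9.29, 7.34 and 12.0 CPM in hTau.P301S mice. Of 4 endothelial markers 3 were also lower and 1 was higher in the transgenic mice without NR. The median log2 difference of the 4 was −0.55 (−0.67 without hTau.P301S replicate 1). Without that mouse, 1 of the 4 was higher and 2 were lower at an unadjusted edgeR p under 0.05, beside 11.8% of all genes. Summed levels of the 4 were 122 to 224 CPM in WT and 90.2 to 207 CPM in hTau.P301S mice. The part of these cells in the Hspa12b difference was not tested. A DESeq2 fit of all 4 groups together gave this gene alone of the 65 an adjusted p under 0.05 with a fold change past the limit (log2 −0.74, adjusted p = 0.0367), in a fit that called 2.81% of all genes.

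**Figure D3:**
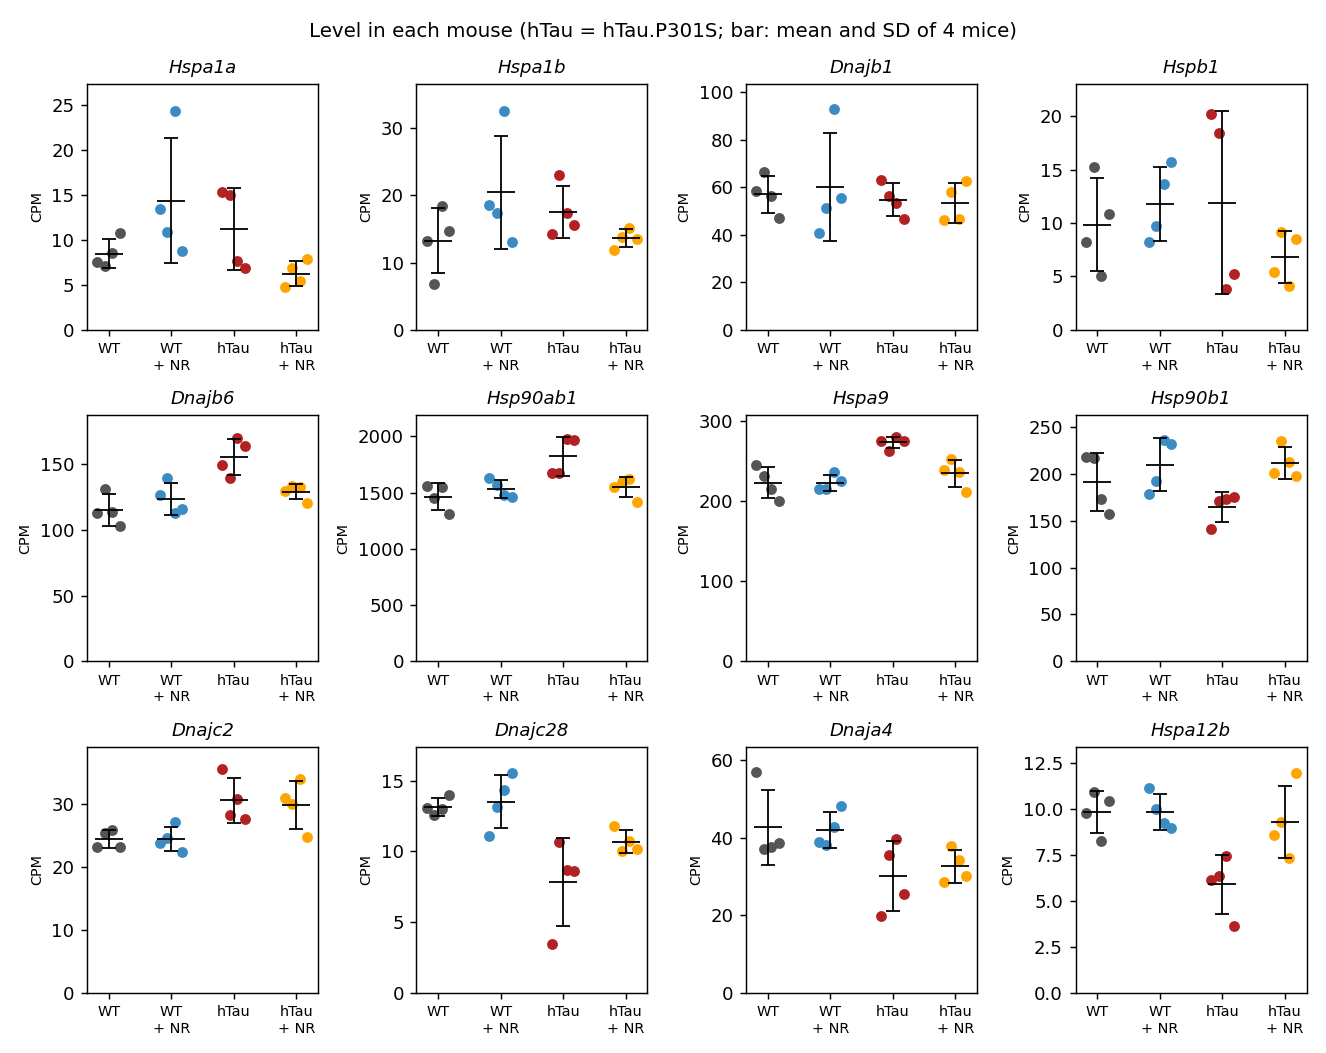
CPM of 12 genes in each mouse (points) with the mean and SD of the 4 mice of each group (bars); hTau stands for hTau.P301S. Dnajb6, Hsp90ab1 and Hspa9 in untreated hTau.P301S mice sit above all WT mice, Dnajc28 and Hspa12b below them, and Hspa1a is lower in all hTau.P301S + NR mice (4.80 to 7.82 CPM) than in all WT + NR mice (8.75 to 24.3 CPM).

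The same genotype comparison under NR used 8 other mice. Again none of the 65 genes was called (0.0513% of all genes were), and the smallest adjusted p was 0.765. In edgeR 6 genes had an unadjusted p under 0.05, Dnajc2 higher and Dnaja4, Dnajc28, Hspa1a, Hspa1b and Hspb1 lower, with 6.19% of all genes at that mark, 2.39% higher and 3.81% lower; in DESeq2 on the same mice, where none was called, the count was also 6, beside 6.93% of all genes. Groups did not overlap in Dnaja4 and Hspa1a alone of the 65, both lower, against 3.77% of all genes, 1.63% higher and 2.14% lower. The median log2 difference was 0.01 over the 65 genes and −0.02 over all genes. For 57 of the 65 the 95% interval lay between a doubling and a halving, beside 70.2% of all genes.

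Hspa1a, one of the 2 inducible HSP70 genes, had the smallest p there. It was at 13.4, 10.8, 24.3 and 8.75 CPM in WT + NR mice and at 4.80, 6.84, 5.38 and 7.82 CPM in hTau.P301S + NR mice. The groups did not overlap, and the log2 difference was −1.21 ± 0.32 (SE; edgeR unadjusted p = 0.00436, adjusted p = 0.765). Hspa1b was at 18.6, 17.4, 32.6 and 13.0 CPM and at 11.9, 13.9, 15.2 and 13.5 CPM, and here the groups overlapped, with a log2 difference of −0.59 ± 0.26 (SE; edgeR unadjusted p = 0.0464). The sum of both genes was 32.0, 28.2, 57.0 and 21.8 CPM in WT + NR mice, and 16.7, 20.7, 20.6 and 21.3 CPM in hTau.P301S + NR mice, without overlap. WT + NR replicate 3 was the highest of all 16 mice in Hspa1a, in Hspa1b and, at 93.1 CPM, in Dnajb1, the inducible DNAJB partner of HSP70. Without this mouse the log2 difference was −0.82 for Hspa1a (edgeR unadjusted p = 0.00669, adjusted p = 0.280) and −0.26 for Hspa1b (unadjusted p = 0.149). The same mouse had the highest summed ependymal markers, at 165 CPM. It also had choroid plexus markers at 5893 CPM, raised striatal markers at 160 CPM and neuronal markers among the lowest, at 2525 CPM. The part of the tissue sampled in these levels was not tested. Hspb1, the small heat shock protein HSP27, was at 8.22, 9.73, 13.6 and 15.7 CPM in WT + NR and at 5.42, 9.18, 4.09 and 8.55 CPM in hTau.P301S + NR mice. These groups overlapped, with a log2 difference of −0.79 ± 0.30 (SE; edgeR unadjusted p = 0.0275).

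Averaged over NR, the genotype comparison used all 16 mice. None of the 65 genes was called, where 0.159% of all genes were, and the smallest adjusted p was 0.324. In 6 genes the unadjusted edgeR p was under 0.05, beside 9.06% of all genes: Dnajb6, Dnajc2 and Hspa9 higher, where 3.99% of all genes were, and Dnaja4, Dnajc28 and Hspa12b lower, where 5.07% were. DESeq2 on the same mice called none and had 8 at that mark, where 10.9% of all genes were. Without hTau.P301S replicate 1 there were 10, beside 14.7% of all genes. For 58 of the 65 (89.2%) the 95% interval lay between a doubling and a halving, against 71.5% of all genes. No gene of the 65 separated all 8 hTau.P301S mice from all 8 WT mice (0.194% of all genes did), and none separated the groups in the same direction both without and with NR (0.313% of all genes).

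Dnajc2, a DNAJ protein that works at the ribosome, was at 23.2, 25.3, 25.8 and 23.1 CPM in WT mice and at 23.7, 24.5, 27.0 and 22.3 CPM in WT + NR mice. In hTau.P301S mice it was at 35.5, 28.2, 30.7 and 27.6 CPM, and with NR at 30.8, 29.9, 33.9 and 24.7 CPM. Of the 8 transgenic mice 7 were above every WT mouse, and the exception was hTau.P301S + NR replicate 4. The averaged log2 difference was 0.31 ± 0.094 (SE; edgeR unadjusted p = 0.00497, adjusted p = 0.324), and 0.27 without hTau.P301S replicate 1 (unadjusted p = 0.00384). The difference was 0.33 without NR, 0.24 with replicate 1 left out as well, and 0.29 with NR.

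Dnajc28, placed here with the mitochondrial genes, ran the other way. It was at 13.0, 12.6, 13.0 and 14.0 CPM in WT mice, and at 11.1, 13.1, 14.3 and 15.5 CPM in WT + NR mice. In hTau.P301S mice it was at 3.42, 10.7, 8.72 and 8.59 CPM, and in hTau.P301S + NR mice at 11.8, 10.0, 10.8 and 10.2 CPM. Of the 8 transgenic mice 7 were below every WT mouse, the exception being hTau.P301S + NR replicate 1. The averaged log2 difference was −0.54 ± 0.18 (SE; edgeR unadjusted p = 0.00837, adjusted p = 0.369), and without hTau.P301S replicate 1, which was far below the rest, it was −0.42 with an unadjusted p of 0.000619 and an adjusted p of 0.0794.

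Dnaja4, a cytosolic DNAJA co-chaperone, was at 57.0, 37.2, 37.8 and 38.8 CPM in WT mice and at 38.8, 38.2, 42.8 and 48.1 CPM in WT + NR mice. In hTau.P301S mice it was at 19.7, 35.7, 39.6 and 25.5 CPM, and with NR at 28.5, 37.9, 34.2 and 30.1 CPM. The genotypes overlapped without NR and were apart with it, by a narrow margin. The averaged log2 difference was −0.43 ± 0.15 (SE; edgeR unadjusted p = 0.0104, adjusted p = 0.397), and −0.35 without hTau.P301S replicate 1 (unadjusted p = 0.0122). Wdr61, which overlaps it on the other strand, had an averaged log2 difference of 0.21.

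**Figure D4:**
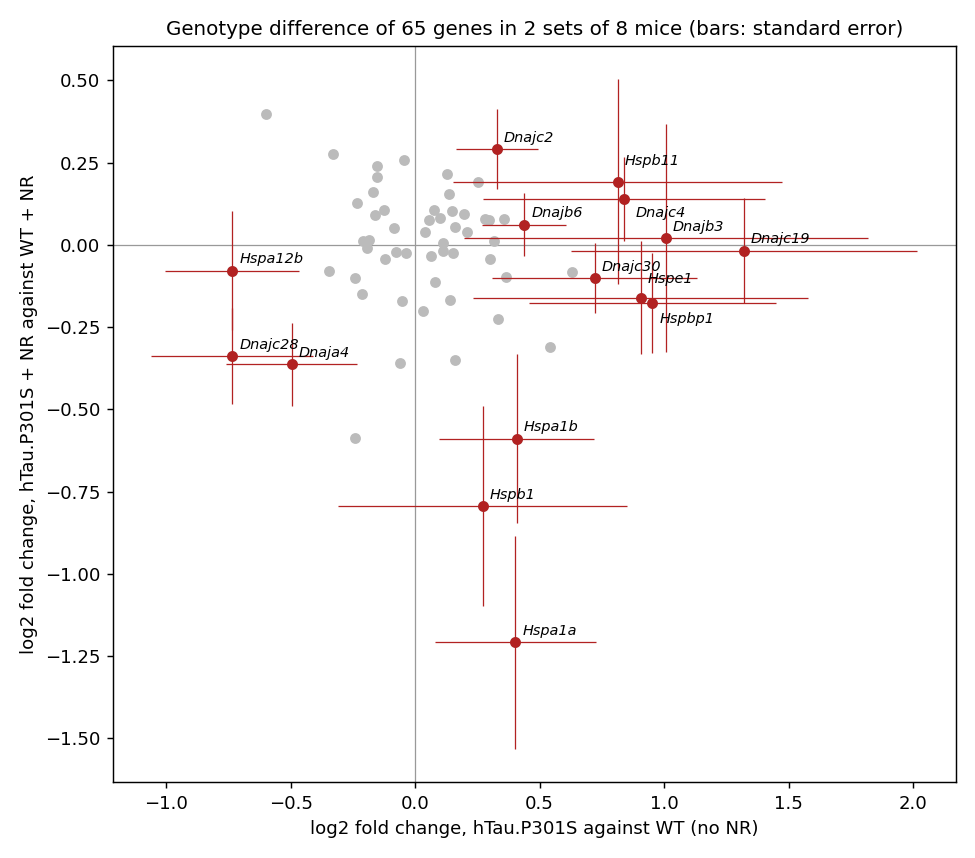
Log2 difference between hTau.P301S and WT mice for the 65 genes without NR (x axis) and with NR (y axis), which used no mouse in common. Red points, with standard errors as bars, are genes with an unadjusted p under 0.05 in either comparison or a difference above 0.7 without NR; Dnajc2 is positive and Dnajc28 and Dnaja4 are negative on both axes, while Hspa1a is at 0.40 without NR and −1.21 with NR.

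NR in WT mice gave the fewest differences among these genes. None of the 65 genes was called, as none of all genes was (0%), with adjusted p-values of 1. Hspa1a alone of the 65 had an unadjusted p under 0.05, in edgeR and in DESeq2 on the same mice alike, beside 0.940% of all genes in edgeR, 0.422% higher and 0.518% lower, and 1.17% in DESeq2. No gene of the 65 was without overlap, against 0.826% of all genes, 0.399% higher and 0.427% lower. The median log2 difference was 0.01, and −0.00 over all genes. The 95% interval of 56 of the 65 genes lay between a doubling and a halving, against 68.7% of all genes. Hspa1a was at 7.51, 7.12, 8.54 and 10.7 CPM in WT mice, so that 3 of the 4 WT + NR mice, at 13.4, 10.8 and 24.3 CPM, were above them all. Its log2 difference was 0.76 ± 0.32 (SE; edgeR unadjusted p = 0.0391), and without WT + NR replicate 3 it was 0.38. Hspa1b was at 13.3, 6.78, 18.4 and 14.7 CPM in WT mice, with a log2 difference of 0.63 (unadjusted p = 0.106). The sum of the 2 genes was 20.8, 13.9, 26.9 and 25.4 CPM in WT mice.

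NR in hTau.P301S mice was compared with the same 4 untreated hTau.P301S mice that enter the first genotype comparison, so the signs of the 2 comparisons are not independent; the interaction and the averaged genotype difference share their mice with all 4 pairwise comparisons. None of the 65 genes was called (0.00570% of all genes were), and the smallest adjusted p was 0.369. An unadjusted edgeR p under 0.05 was reached by 3 genes, Hspa12b higher and Hspa1a and Hspbp1 lower, where 13.0% of all genes reached it, 6.03% higher and 7.00% lower; DESeq2 on the same mice called none and had 6 of the 65 at that mark, beside 15.5% of all genes. Groups did not overlap in 5 genes, Hsp90b1 and Hspa4l higher and Hsp90ab1, Hspa9 and Dnajb6 lower, beside 11.8% of all genes, 6.50% higher and 5.28% lower. Both counts are below the share over all genes, and without hTau.P301S replicate 1 the first was 9, beside 17.8% of all genes. The median log2 difference was −0.04 (−0.02 over all genes), and for 45 of the 65 the 95% interval lay between a doubling and a halving, where 40.6% of all genes had such an interval.

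Hspa1a was at 15.3, 14.9, 7.63 and 6.87 CPM in hTau.P301S mice, a split of replicates 1 and 2 from 3 and 4, and only the latter pair reached down to the levels under NR. Its log2 difference with NR was −0.85 ± 0.33 (SE; edgeR unadjusted p = 0.0289, adjusted p = 0.369), and −0.66 without hTau.P301S replicate 1 (unadjusted p = 0.0501). Hspa1b was at 14.2, 23.0, 17.4 and 15.6 CPM in these mice, and the sum of both was 29.5, 38.0, 25.1 and 22.4 CPM. Each of the 4 sums was above every sum in hTau.P301S + NR mice. Hspa12b under NR was back among the WT levels given above, with a log2 difference of 0.65 ± 0.27 (SE; edgeR unadjusted p = 0.0399), and 0.68 without hTau.P301S replicate 1 (unadjusted p = 0.0313). Hspbp1, at 53.7, 71.7, 48.7 and 76.2 CPM with NR, had a log2 difference of −1.16 ± 0.51 that was −0.31 without hTau.P301S replicate 1.

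Hsp90b1, the HSP90 of the endoplasmic reticulum, was at 141, 171, 173 and 175 CPM in hTau.P301S mice and at 201, 236, 213 and 198 CPM in hTau.P301S + NR mice. All mice with NR were above all without. The log2 difference was 0.35 ± 0.16 (SE; edgeR unadjusted p = 0.0517), and 0.29 without replicate 1 (unadjusted p = 0.0167, adjusted p = 0.188). In WT mice it was at 218, 218, 174 and 157 CPM, a spread that covered most of both transgenic groups. Hspa4l, an HSP110, was at 74.1, 179, 146 and 180 CPM in hTau.P301S and at 213, 196, 232 and 207 CPM in hTau.P301S + NR mice. Here too the groups did not overlap, with a log2 difference of 0.55 ± 0.27 (SE; edgeR unadjusted p = 0.0779), which was 0.33 without the low replicate 1.

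Whether NR acted differently in the 2 genotypes was asked by the interaction over all 16 mice. No gene had an adjusted p under 0.05, among the 65 (smallest 0.558) or among all genes (0%). In 4 of the 65 the unadjusted p was under 0.05, Hspa12b positive and Hspa1a, Hspa1b and Dnajb6 negative, beside 7.92% of all genes, 3.29% positive and 4.63% negative, and DESeq2, which called none, had 6 at that mark, with 9.31% of all genes. Without hTau.P301S replicate 1 there were 7 of the 65, beside 7.47% of all genes. The 2 inducible HSP70 genes gave the largest of these differences. The interaction of Hspa1a was −1.60 ± 0.48 (SE; edgeR unadjusted p = 0.00407, adjusted p = 0.558), made of 0.76 in WT and −0.85 in hTau.P301S mice. That of Hspa1b was −0.99 ± 0.42 (SE; unadjusted p = 0.0325). For Hspa1a it was −1.41 without hTau.P301S replicate 1 and −1.22 without WT + NR replicate 3, with unadjusted p-values of 0.00907 and 0.0109. For Hspa1b it was −1.08 without the first and −0.67 without the second, the latter with an unadjusted p of 0.0970. Dnajb6 had an interaction of −0.37 ± 0.17 and Hspa12b one of 0.66 ± 0.31 (SE; unadjusted p = 0.0479 and 0.0493), and without hTau.P301S replicate 1 these were −0.38 and 0.69 (unadjusted p = 0.0243 and 0.0455). Intervals for the interaction were wide, and in 36 of the 65 genes they lay between a doubling and a halving (31.3% of all genes).

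Other inducible and constitutive cytosolic genes varied less between groups. Dnajb1 was at 58.3, 66.4, 56.2 and 47.2 CPM in WT, at 63.2, 56.2, 53.2 and 46.7 CPM in hTau.P301S and at 46.2, 57.9, 46.7 and 62.7 CPM in hTau.P301S + NR mice, all overlapping, with log2 differences of −0.05 and −0.04 in the first genotype comparison and under NR in hTau.P301S mice. Hspa8 was at 1380, 1606, 1399 and 1211 CPM in WT mice, and at 2340, 1019, 1196 and 1340 CPM in hTau.P301S mice, where only replicate 1 was above the WT mice. Dnajc7, a co-chaperone that binds both HSP70 and HSP90, had log2 differences of 0.04 between hTau.P301S and WT mice and −0.11 for NR in hTau.P301S mice, with SEs of 0.15. Of 12 targets of heat shock factor, listed by role, 9 were on the higher and 3 on the lower side in the first genotype comparison with a median of 0.22, and 3 were higher and 9 lower under NR in hTau.P301S mice with a median of −0.25, where all genes had 0.01 and −0.02. Without hTau.P301S replicate 1 the 2 medians were −0.01 and −0.03, where all genes had −0.03 and −0.005. With all mice 1 of these 12, Hspa1a, had an unadjusted edgeR p under 0.05 under NR, and none in the genotype comparison.

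The 9 endoplasmic reticulum genes had a median log2 difference of −0.15 between hTau.P301S and WT mice and of 0.31 for NR in hTau.P301S mice. These were 0.02 and 0.08 without hTau.P301S replicate 1. With all mice none of the 9 had an unadjusted edgeR p under 0.05 in either. Without replicate 1, Hsp90b1 was under that mark for NR in hTau.P301S mice, as given above. Hspa5, the HSP70 known as BiP, was at 304, 291, 198 and 182 CPM in WT and at 217, 224, 349 and 322 CPM in WT + NR mice. It was at 173, 227, 212 and 210 CPM in hTau.P301S and at 233, 318, 219 and 267 CPM in hTau.P301S + NR mice. In each group the high mice were those with choroid plexus markers. Summed over 5 such markers, 6 mice (2 in each WT group and 1 in each hTau.P301S group) were at 2460 to 9776 CPM and the other 10 at 18.9 to 441 CPM. Hspa5 was at 227 to 349 CPM in the 6 and at 173 to 267 CPM in the 10, Hsp90b1 at 171 to 237 and 141 to 213 CPM, and Dnajc3, an inhibitor of the stress kinase PERK, at 64.9 to 123 and 39.0 to 90.2 CPM. Dnajb9, Dnajc10 and Dnajc25 also had their highest mouse among the 6. Other reticulum genes had it among the 10. Dnajb11 was at 41.2 to 51.6 CPM in the 6 and at 37.8 to 57.0 CPM in the 10. Dnajc1 was at 16.5 to 26.5 and 9.83 to 30.5 CPM, and Hspa13 at 53.6 to 63.2 and 24.7 to 68.1 CPM. The 6 mice were found from the markers after the data were seen, so these ranges are a description, and the part of the tissue in the levels was not tested. The other reticulum DNAJ genes Dnajb9, Dnajb11 and Dnajc10 had log2 differences of 0.14, 0.14 and 0.05 between hTau.P301S and WT mice, with SEs of 0.18, 0.18 and 0.22.

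Of the 10 mitochondrial genes 9 were higher without NR in transgenic mice (median log2 difference 0.33) and 9 were lower under NR in hTau.P301S mice (median −0.23). Without hTau.P301S replicate 1 the medians were 0.00 and −0.02. In the first comparison, with all mice, 1 of the 10, Dnajc28, had an unadjusted edgeR p under 0.05. Hspd1, the chaperonin HSP60 that shares a promoter region with Hspe1, was at 164, 183, 148 and 134 CPM in WT and at 187, 169, 196 and 167 CPM in hTau.P301S mice, where replicate 1 lay within the range of the rest. Dnaja3, the DNAJ partner of Hspa9, had a log2 difference of 0.15 ± 0.15 (SE).

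All 4 genes named as small heat shock proteins, grouped by name alone, were higher in the untreated transgenic mice (median 0.41) and lower under NR in hTau.P301S mice (median −0.60). With hTau.P301S replicate 1 left out these medians were −0.02 and −0.25, and with all mice none of the 4 had an unadjusted p under 0.05 in either. Hspb1 was at 8.22, 15.3, 5.01 and 10.9 CPM in WT and at 20.2, 18.4, 3.81 and 5.21 CPM in hTau.P301S mice, so that replicates 1 and 2 were above and 3 and 4 near the lowest WT mouse. Hspb8, which works with Bag3 in the removal of misfolded proteins, was at 32.3, 33.6, 11.3 and 17.1 CPM in WT and at 30.9, 37.9, 16.6 and 19.8 CPM in hTau.P301S mice. It too fell into a high and a low pair of mice within each genotype, and its log2 difference was 0.16 ± 0.40 (SE).

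Among the DNAJC genes of vesicle traffic, Dnajc6, Dnajc5 and Dnajc13 had log2 differences close to 0 beside their errors. Dnajc6 was at 246, 230, 393 and 266 CPM in WT mice, with a log2 difference of 0.15 ± 0.38 (SE) that became 0.41 without hTau.P301S replicate 1 (unadjusted p = 0.0715). Dnajc5 was at 375, 354, 404 and 361 CPM in WT, 367, 426, 356 and 382 CPM in WT + NR, and 384, 382, 401 and 419 CPM in hTau.P301S + NR mice. In untreated hTau.P301S mice replicates 2 to 4, at 417, 420 and 434 CPM, were above all WT mice, and replicate 1 was far below them. Dnajc13, an endosomal DNAJ protein, had a log2 difference of −0.15 ± 0.30 (SE) between hTau.P301S and WT mice and of 0.37 ± 0.24 (SE) for NR in hTau.P301S mice.

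Some levels moved with markers of particular cell types, whose part in them was not tested. Dnajb13 was at 3.07, 2.63, 0.0527 and 0.162 CPM in WT mice, at 2.52, 0.492, 4.64 and 4.01 CPM in WT + NR mice, at 2.05, 1.32, 0.817 and 0.831 CPM in hTau.P301S mice and at 2.73, 2.82, 1.29 and 0.923 CPM in hTau.P301S + NR mice. Within each genotype and treatment the levels thus differed severalfold. Over the 16 mice Dnajb13 correlated with the summed level of 4 ependymal markers, which ranged from 11.3 to 165 CPM, with Pearson r = 0.90 and Spearman rho = 0.96 (permutation p = 1e-05 for both, the smallest that 100000 permutations can give, adjusted p = 0.00585 over 585 correlations of a gene with a marker sum). Without the 2 mice farthest from the median marker sum, r was 0.88. The 3 lowest mice in Hspa12a, hTau.P301S replicate 1 at 95.6, WT replicate 2 at 141 and WT + NR replicate 3 at 176 CPM, were also the 3 with the lowest summed neuronal markers, at 2600, 2426 and 2525 CPM, against 3664 to 6284 CPM in the others.

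**Figure D5:**
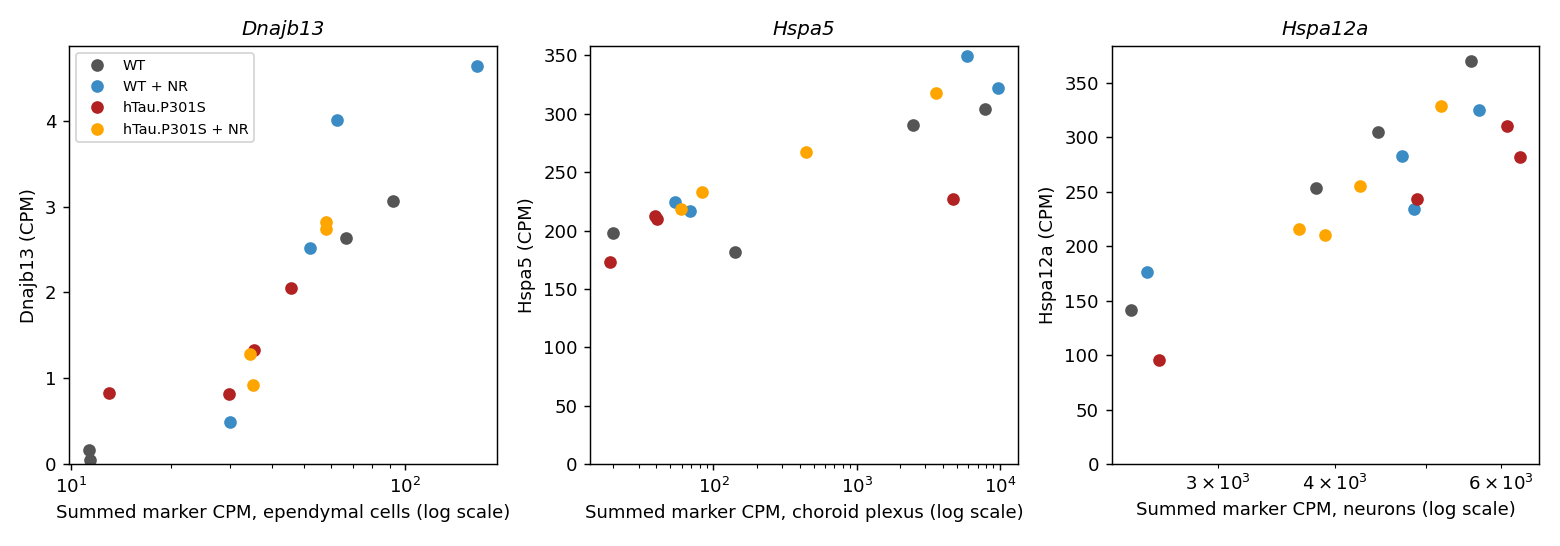
CPM of Dnajb13, Hspa5 and Hspa12a in the 16 mice (points, coloured by group) against the summed CPM of ependymal, choroid plexus and neuronal markers (x axes, log scale). Dnajb13 is higher where ependymal markers are higher, Hspa5 reaches 349 CPM among the 6 mice with choroid plexus sums of 2460 CPM or more and at most 267 CPM among the other 10, and the 3 lowest mice in Hspa12a have the 3 lowest neuronal sums.

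The partners and regulators of these proteins were counted from a list of 25 factors and co-chaperones, of which 24 were tested. None was called in any comparison. In hTau.P301S against WT mice 16 were higher and 8 lower, with 1 (Fkbp5) higher and 2 (Ahsa2 and Chordc1) lower at an unadjusted p under 0.05, beside 7.79% of all genes, 3.42% higher and 4.37% lower. The median log2 difference of the 24 was 0.10. With hTau.P301S replicate 1 left out, 11 were higher and 13 lower, with 2 of each at an unadjusted p under 0.05 and a median of −0.03, and that of all genes was −0.03. Hsf1, the main heat shock factor, had a log2 difference of 0.03 ± 0.23 (SE) and Bag3 one of 0.11 ± 0.28 (SE); without replicate 1 they were −0.22 and 0.12. Bag1, the nucleotide exchange factor named above, was at 103, 127, 96.9 and 88.3 CPM in WT and at 218, 80.1, 98.2 and 93.9 CPM in hTau.P301S mice. Only replicate 1 was outside the WT range by much, and the log2 difference was 0.24 ± 0.33 (SE; edgeR adjusted p = 0.787), and −0.20 without replicate 1. Under NR it was at 97.5, 86.2, 115 and 105 CPM in WT and at 90.6, 96.0, 98.4 and 99.9 CPM in hTau.P301S mice.

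Eva1c itself was low. It was at 2.58, 2.69, 2.64 and 2.49 CPM in WT and at 2.77, 1.64, 3.16 and 3.22 CPM in WT + NR mice. In hTau.P301S mice it was at 6.15, 3.97, 3.27 and 4.54 CPM, and in hTau.P301S + NR mice at 1.70, 2.61, 1.40 and 2.09 CPM. All untreated hTau.P301S mice were above all WT mice and above all hTau.P301S + NR mice. The log2 difference was 0.79 ± 0.29 to WT (SE; edgeR unadjusted p = 0.0230, adjusted p = 0.583) and −1.20 ± 0.31 with NR (SE; unadjusted p = 0.00414, adjusted p = 0.364). When replicate 1, the highest mouse, was left out these were 0.59 and −1.01 (unadjusted p = 0.0366 and 0.00468).

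Chordc1 and Ahsa2, both partners of HSP90, were lower in hTau.P301S mice without NR. Chordc1 was at 69.2, 60.3, 65.5 and 71.6 CPM in WT, at 37.9, 44.8, 47.7 and 51.1 CPM in hTau.P301S and at 74.8, 70.2, 74.1 and 58.1 CPM in hTau.P301S + NR mice. The untreated hTau.P301S mice were below all mice of the other 2 groups. Its log2 differences were −0.55 ± 0.16 to WT (SE; edgeR unadjusted p = 0.00830, adjusted p = 0.583) and 0.61 ± 0.16 with NR (SE; unadjusted p = 0.00482, adjusted p = 0.369). Without replicate 1 they were −0.48 and 0.53. Ahsa2, an activator of the HSP90 ATPase by its name and family, was at 12.2, 11.5, 13.0 and 17.0 CPM in WT, at 8.72, 8.16, 9.32 and 8.64 CPM in hTau.P301S and at 12.7, 14.8, 9.64 and 12.0 CPM in hTau.P301S + NR mice, with the untreated hTau.P301S mice again below the others. Its log2 difference to WT was −0.62, and −0.63 without replicate 1. Fkbp5, an HSP90 partner raised by glucocorticoids, was at 60.9, 45.6, 60.0 and 57.7 CPM in WT, at 56.4, 191, 93.7 and 111 CPM in hTau.P301S and at 60.8, 59.0, 76.9 and 43.2 CPM in hTau.P301S + NR mice. Here hTau.P301S replicate 1 was the one mouse of its group within the WT range, and the log2 difference to WT was 1.02 ± 0.34 (SE; edgeR unadjusted p = 0.0146, adjusted p = 0.583), or 1.23 without that mouse.

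The 8 subunits of the cytosolic chaperonin TRiC were all higher in hTau.P301S mice without NR, with a median log2 difference of 0.32, and all lower with NR in hTau.P301S mice, with a median of −0.34, but none had an unadjusted p under 0.05 in either comparison. In all 8, hTau.P301S replicate 1 was the highest mouse of its group. Without it the medians were 0.09 and −0.14, again with all 8 subunits on those sides, where all genes had −0.03 and −0.005. In that setting 1 of the 8 had an unadjusted edgeR p under 0.05, under NR, beside 17.8% of all genes. With NR in both genotypes 4 were higher and 4 lower in hTau.P301S mice. Of 13 genes of endoplasmic reticulum stress, 8 were higher and 5 lower in that first comparison (median 0.26), and replicate 1 was the highest mouse of its group in 9. Without it 5 were higher and 8 lower, with a median of −0.10. Atf4, a transcription factor of the stress response, was at 0.56 ± 0.25 and Herpud1, a protein of reticulum-associated degradation, at 0.53 ± 0.21 (SE) on the log2 scale, with unadjusted edgeR p-values of 0.0485 and 0.0363. These were the 2 of the 13 at an unadjusted p under 0.05, beside 7.79% of all genes. Without replicate 1 their differences were 0.28 and 0.39, with unadjusted p-values of 0.0408 and 0.0503. In that fit another of the 13, Pdia6, was lower at −0.48 (edgeR unadjusted p = 0.0335). Thus 1 of the 13 was higher and 1 lower at that mark, beside 11.8% of all genes. Of 8 tested partners of HSP70 and of the mitochondrial chaperones, 6 were higher and 2 lower (median 0.27), and without replicate 1, 3 were higher and 5 lower (median −0.02). One of them, Serpinh1, the collagen chaperone of the endoplasmic reticulum, had a log2 difference of −0.97 ± 0.37 (SE; unadjusted p = 0.0281), and −0.87 without replicate 1. Of 13 immediate early genes, 6 were higher and 7 lower between hTau.P301S and WT mice, also without replicate 1. With NR in hTau.P301S mice 4 were higher and 9 lower, 2 of the 9 at an unadjusted edgeR p under 0.05, beside 13.0% of all genes. Without replicate 1, 3 were higher and 10 lower, and 4 (Arc, Junb, Nr4a1 and Btg2) were lower at that mark, beside 17.8% of all genes. Between the genotypes under NR 1 was higher and 12 lower, none at that mark.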

How the data were processed

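Hippocampal poly-A RNA of 16 mice was sequenced after preparation with a NEBNext Ultra kit. The authors trimmed the reads (FastQC and Trim Galore in the submitters' processing notes), aligned them to mm10 with STAR and counted them per gene with RSEM; the deposited values are raw counts per gene in whole numbers, with a deposited gene length in bases that was used only for levels per kilobase. The read length and the strand setting of the counting are not given in the sources used here.

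Counts were analysed in R 4.3.3 with edgeR 4.0.16. The 17555 genes kept by filterByExpr over the 4 groups were scaled by TMM, and CPM uses these sizes. Each pair of groups was fitted with its own 8 mice by the quasi-likelihood test, and the interaction and the genotype average with all 16. Adjusted p-values are Benjamini-Hochberg over all 17555 genes; the call rule was an adjusted p below 0.05 together with a log2 fold change beyond 0.5 in either direction, and for the interaction the adjusted p alone. DESeq2 1.42.0 was an alternative. Other alternatives were all 4 groups in 1 fit, other scalings and filters, removal of mitochondrially encoded genes, a replicate block and each mouse left out in turn. The fits were tested on simulated data. The replicate numbers mark different animals and their deviations correlated from −0.54 to 0.29, so they were not used to pair mice.

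The genes described, the gene lists and the cell type markers were chosen with earlier results of these data known. Genes were given by value where they were among the 6 smallest p-values of a comparison, had groups without overlap by the stated limits, were chosen by role, or were the most abundant. Hsp90ab1, Hspa9, Dnajb6 and Hspa4l in the NR comparison of hTau.P301S mice, and Hspa12a, Hspb6, Dnajb3 and Dnajb13, were named after their values were seen. Gene positions and overlaps came from GENCODE annotation of GRCm38, and promoters from RefSeq of GRCm38.p6. Neurod6 and Thy1 were added as checks of the labels after the data were seen. Correlations used 100000 permutations.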

Additional observations from a re-analysis of the deposited data

Results flagged for a closer look

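For 40 genes, the 38 named by the rule with Hspa12a and Dnajb13, each of the 160 groups of 4 mice was examined for a single mouse with a large gap to its group (Dixon's criterion), which chance alone meets in about 1 group in 20. A total of 15 values met it, and 8 of them were in hTau.P301S replicate 1, the library that stood apart. Of these 8, 2 were above the rest of the group, Dnajc19 at 137.1 CPM and Hspbp1 at 325.4 CPM. The other 6 were below it: Hsp90b1 at 141.4 CPM, Dnajc5 at 134.2 CPM, Dnajc6 at 116.8 CPM, Dnajc10 at 52.74 CPM, Dnajc18 at 52.74 CPM and Hspa1l at 0.1709 CPM.

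In WT mice, Dnaja4 at 57 CPM and Dnajb11 at 48.28 CPM in replicate 1 and Dnajc7 at 106.9 CPM in replicate 4 stood away from the other 3 mice. In WT + NR mice it was Hspa8 at 1517 CPM in replicate 3 and Dnajc18 at 90.86 CPM in replicate 1. In hTau.P301S + NR mice it was Dnajc10 at 91.11 CPM in replicate 1 and Dnajc7 at 118 CPM in replicate 2. No difference in NR effect between the genotypes passed an adjusted p under 0.05.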

How the results depend on the processing

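Of 708 values of 36 single-gene results under the alternatives, 706 kept their direction and their side of the call rule, fold limit included. No gene of the 65 met that rule in the main fits, so staying uncalled was the usual outcome. The log2 difference of Dnajc19 between hTau.P301S and WT mice, 1.32, changed sign to −0.097 without hTau.P301S replicate 1, and ranged from −0.097 to 1.57 as each mouse was left out. Hspa12b was called by DESeq2 with all 4 groups in 1 fit (log2 −0.74), so that the count of the 65 genes called between hTau.P301S and WT mice was 1 there; it was 0 in all 6 comparisons with each mouse left out (0 to 0). That fit called 494 of all genes, where the edgeR fit of 8 mice called 1. Dnajb6, Hsp90ab1 and Hspa9 had adjusted p-values of 0.00840, 0.0312 and 0.0228 in it, with log2 differences of 0.43, 0.31 and 0.29, under the fold limit.

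Counts at an unadjusted p under 0.05 moved more. With 1 mouse left out, between 1 and 7 of the 65 genes were there for hTau.P301S against WT, 0 to 9 for NR in hTau.P301S mice, 0 to 2 for NR in WT mice, 2 to 6 for the genotypes under NR, 1 to 7 for the interaction and 5 to 10 for the averaged genotype difference. The highest counts of 7, 9, 7 and 10 came without hTau.P301S replicate 1, where 11.8%, 17.8%, 7.47% and 14.7% of all genes were there. Over the other alternatives the counts ranged from 0 to 10, 0 to 14, 0 to 2, 2 to 6, 2 to 6 and 5 to 8 in the same order of comparisons. The highest counts came where 18.1% (10 genes, edgeR with all 4 groups), 22.3% and 0.991% (14 and 2 genes, DESeq2 with all 4 groups), 6.06% to 6.93% (6 genes, several settings) and 9.31% and 10.9% (6 and 8 genes, DESeq2 on the same mice) of all genes were there.

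With the replicate block none of the 65 genes was called (0 in each comparison), and 0, 0, 0, 4, 2 and 5 were at an unadjusted p under 0.05, beside 5.01%, 6.03%, 0.575%, 3.85%, 5.62% and 7.70% of all genes. Under the block the log2 difference of Hspa1a between hTau.P301S + NR and WT + NR mice was −1.12 (adjusted p = 0.960). Precision is limited by 4 mice per group: about 2 in 3 genes here had intervals inside a doubling and a halving in the comparisons with untreated hTau.P301S mice. Hspa1l, Dnajb13 and Dnajb3 are further limited by low counts, with as few as 2, 1 and 10 in a mouse. Hspbap1, the lowest per kilobase of listed length, had 53 to 101 counts.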
